A study of Solanum lycopersicum with 9 samples.

Results

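ADP-glucose pyrophosphorylase makes ADP-glucose, the glucosyl donor for starch, from glucose 1-phosphate and ATP. The plant enzyme is built from small and large subunits, and different large subunits are used in different organs. In tomato fruit starch accumulates while the fruit is green and is broken down before it is red, and the sugars released add to the hexoses of the ripe fruit. Large subunit transcripts of plants are known to respond to sugars.

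Expression was followed here for the 3 probe sets whose whole gene symbol in the platform annotation was AgpL1, AGPL3 or AGP-S2, letter case ignored. They stood for 3 of the 802 genes with a symbol on the array, and were 3 of the 10038 probe sets tested, 909 of which were named. The 9 arrays measured RNA from mesocarp of red ripe fruit of tomato, Solanum lycopersicum cv Money Maker. Wild-type (WT) fruit gave 3 pools. Asr1, a small protein of abscisic acid, stress and ripening responses, was silenced with an antisense construct in lines AS5 and AS17, with 3 pools each. A pool held mesocarp of 2 fruits, plants differed between pools of a line, and all plants shared 1 greenhouse regime. The silencing is represented by 2 lines, and neither the construct's promoter, nor the age of the plants, nor the origin of the lines was stated in the labels.

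Each gene had 1 probe set, so no second probe set was at hand to check any of the 3. AgpL1, which has the RefSeq synonym AGPase1, and AGPL3 carry names of large subunits, and each had 1 RefSeq transcript. AGP-S2 reads as a small subunit, but RefSeq lists agpL2, the name of a large subunit, as its synonym. Which subunit class its probe set reports was not settled here, and it is called by its symbol. RefSeq lists 3 transcripts for AGP-S2, and which of them the probe set reads was not examined here. The accessions behind the probe sets are not translated here into subunit classes, and no sequence or coordinate is given, since no label names a genome build for the array.

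Values are log2 expression, so a change of 1 is a doubling. The background level of an array was taken as the 95th percentile of its 63 reporter gene controls. It ran from 1.41 to 1.56 in WT and from 1.57 to 1.98 in silenced-line arrays, and so moved with the groups. Array medians over the tested probe sets ran from 5.24 to 5.47. AS5 pool 3 and AS17 pool 1 stood apart from the other arrays: they were the 2 highest arrays for 949 of the 7315 probe sets above background on every array (13.0%). Their 3′ minus 5′ signal for the control gene gapdh, a sign of RNA quality, was 0.62 and 0.55, against 0.83 to 1.06 in the other 7 arrays. A higher value means less 5′ signal relative to 3′, as in degraded RNA, so these values lay on the less degraded side. For ubiquitin the 3′ minus 5′ signal was 1.12 and 1.36, against 1.41 to 1.75. For actin it was 0.48 in AS5 pool 3 and 1.08 in AS17 pool 1, against 0.73 to 1.10, so only the first lay outside the others. Differences of AgpL1 and AGP-S2 are given with and without these arrays. Ripe-fruit markers matched 9 of 16 listed symbols, among them PG2, E8, Psy1 and RIN. All 9 were above background on every array, and their mean per array lay between 10.3 and 10.9. The 2 lowest means were those of AS5 pool 3, at 10.30, and AS17 pool 1, at 10.47, against 10.55 to 10.90 in the other 7 arrays. The markers did not fall together. In AS17 pool 1, ADH2, PG2, ACS2 and RIN lay above every WT pool, E8 and ACS4 between them, and Psy1, EXP1 and loxC below. Of these loxC lay farthest below, at 5.73 against 6.81 to 8.23 in WT. It was below every WT pool in AS5 pools 1, 2 and 3 as well, at 5.87, 6.42 and 5.62. In AS17 pools 2 and 3 it lay between the WT pools, at 7.04 and 7.39. In AS5 pool 3, E8 and ACS2 lay above every WT pool, PG2 between them and the others below.

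The subunits were compared between silenced and WT fruit to see whether a starch synthesis enzyme differed at the transcript level. None of the 3 passed in limma when the mean of both lines was set against WT, at a Benjamini-Hochberg adjusted p under 0.05, while 1.28% of all tested probe sets did. At an unadjusted p under 0.05 the count of members was also 0, beside 15.5% of all tested probe sets, and the smallest unadjusted p was 0.062, for AGPL3, which was at background. In bulk fruit tissue, fewer cells of a type and less RNA per cell cannot be told apart.

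AgpL1 was the subunit with the widest differences between arrays. It stood at 2.30, 3.80 and 2.97 in WT pools 1, 2 and 3, all above background. In AS5 pools 1, 2 and 3 it stood at 3.78, 3.23 and 4.78. In AS17 pools 1, 2 and 3 it stood at 5.07, 3.17 and 4.12. All 6 silenced pools lay above the WT mean, but only 3 of 6 lay above the highest WT pool, so the groups overlapped. The 2 highest values belonged to AS17 pool 1 and AS5 pool 3, the arrays that stood apart.

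**Figure D1:**
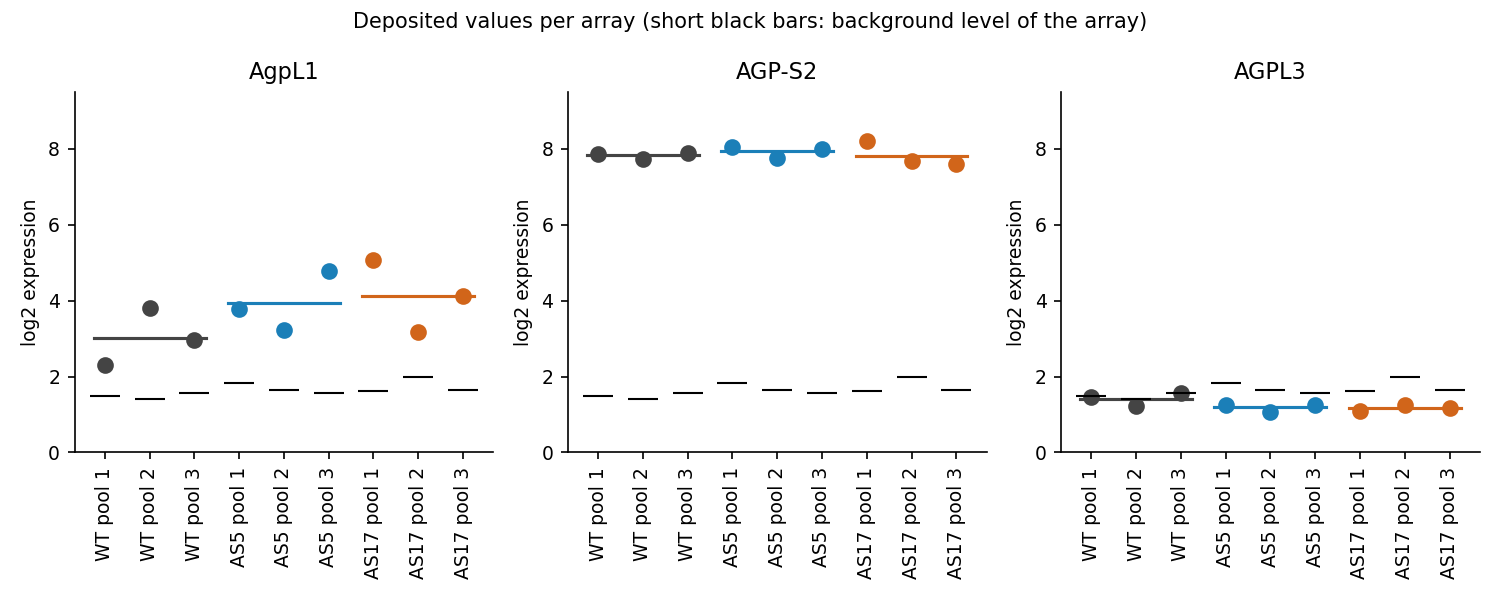
Deposited log2 expression (vertical axis) of AgpL1, AGP-S2 and AGPL3 in each of the 9 arrays (horizontal axis), coloured by group; coloured lines are group means and short black bars the background level of each array. AgpL1 varies from 2.30 to 5.07, AGP-S2 stays between 7.59 and 8.20, and AGPL3 lies at or below background on 8 of 9 arrays.

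Group means of AgpL1 were 3.03 ± 0.75 in WT, 3.93 ± 0.78 in AS5 and 4.12 ± 0.95 in AS17 (SD, n = 3 each). In that order, neither neighbouring pair differed past the threshold in limma. Limma gave, between the mean of both lines and WT, a log2 difference of 1.00 (SE 0.49, adjusted p = 0.374), with a 95% confidence interval from -0.12 to 2.11. On a linear scale this interval runs from 0.923-fold to 4.33-fold, so neither a small loss nor a 4-fold gain was shut out. A difference of 2.53 would have been needed at this SE to reach the smallest t that passed in the table. Without AS5 pool 3 and AS17 pool 1 the difference was 0.55 (SE 0.39, adjusted p = 0.486). Without WT pool 1, the lowest array, it was 0.64 (adjusted p = 0.796). Leaving out WT pool 2, the highest WT array, raised it to 1.39 (adjusted p = 0.425). The 2 arrays with the most AgpL1 also had the lowest ripe-fruit marker means. Their gapdh and ubiquitin 3′ minus 5′ signals were the lowest too, on the less degraded side. In AS17 pool 1 the low marker mean was not shared by all markers, with loxC farthest below WT. A loxC value below every WT pool was also seen in every AS5 pool, not only in the 2 arrays. The part of these in AgpL1's values was not tested.

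The spread of AgpL1 within groups was itself wide. Its pooled SD within groups was 0.83, above that of 98.2% of the tested probe sets. Among the 690 probe sets whose mean over the arrays lay within 0.5 of AgpL1's, the median pooled SD was 0.31, and 95.1% had a smaller one than AgpL1. Thus pools of 1 line differed in this transcript more than in most transcripts of like signal.

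AGP-S2 differed little between arrays. It stood at 7.85, 7.73 and 7.90 in WT pools 1, 2 and 3. In AS5 pools 1, 2 and 3 it stood at 8.06, 7.77 and 7.99. In AS17 pools 1, 2 and 3 it stood at 8.20, 7.67 and 7.59. The highest and the lowest values both came from AS17, and every group overlapped the others: 3 silenced pools lay above the highest WT pool and 2 below the lowest.

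Group means of AGP-S2 were 7.83 ± 0.09 in WT, 7.94 ± 0.15 in AS5 and 7.82 ± 0.33 in AS17 (SD, n = 3 each). The mean of both lines minus WT was 0.05 (SE 0.15, adjusted p = 0.923), with a 95% confidence interval from -0.29 to 0.38 that covers folds from 0.820 to 1.31. Its sign turned to -0.06 without AS5 pool 3 and AS17 pool 1. The interval leaves room for moderate changes in either direction, but is narrower than that of AgpL1. The pooled SD of AGP-S2, 0.22, was close to the median of 0.21 among the 1041 probe sets of like signal.

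AGPL3 was not measurable above background in most pools. It stood at 1.46, 1.23 and 1.57 in WT pools 1, 2 and 3. In AS5 pools 1, 2 and 3 it stood at 1.26, 1.06 and 1.26, and in AS17 pools 1, 2 and 3 at 1.10, 1.26 and 1.16. Only WT pool 3 exceeded its array's background level, by 0.005, so the probe set was at or below background on 8 of 9 arrays, as were 18.8% of all tested probe sets on at least 8.

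No fold is given for AGPL3, since both silenced lines were at background in every pool and WT in 2 of 3. The measured difference of the mean of both lines from WT was -0.23 (SE 0.11, adjusted p = 0.348). Values this low carry little order: 3 arrays held exactly the same AGPL3 value, and that value occurred 484 times among the tested probe sets and arrays. Of the 1638 probe sets at or below background on all arrays, 1456 had a value repeated between arrays. Such a signal does not show that the AGPL3 transcript was missing from ripe fruit.

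The lines were also compared with WT one at a time and with each other. Both line contrasts subtract the same 3 WT arrays and are not independent. In AS5 minus WT, 0 of the 3 members passed, against 0.379% of all probe sets, and 0 had an unadjusted p under 0.05, against 9.24%. AgpL1 differed by 0.91 (SE 0.57, adjusted p = 0.69) and AGP-S2 by 0.11 (SE 0.17, adjusted p = 0.896) in limma. The AgpL1 difference was 0.48 without AS5 pool 3 and 0.54 without WT pool 1. It was larger, at 1.30 and 1.25, without WT pool 2 and without AS5 pool 2. That of AGP-S2 was 0.083 without AS5 pool 3. Leaving out WT pool 2 or AS5 pool 1 lowered the AGP-S2 difference further, to 0.058 and 0.047, and leaving out AS5 pool 2 raised it to 0.19. In AS17 minus WT, 0 of the 3 members passed, against 1.34% of all probe sets, and 0 had an unadjusted p under 0.05, against 17.3%. There AgpL1 differed by 1.09 (SE 0.57, adjusted p = 0.367) and AGP-S2 by -0.01 (SE 0.17, adjusted p = 0.987) in limma. Without AS17 pool 1 the AgpL1 difference was 0.62 and that of AGP-S2 was -0.20. Without WT pool 1 the AgpL1 difference was 0.73. It was larger without AS17 pool 2, at 1.57 (unadjusted p = 0.0231, adjusted p = 0.177 in limma). Leaving out WT pool 2 gave 1.48 (unadjusted p = 0.0391, adjusted p = 0.358 in limma).

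Between the lines, AS17 minus AS5 was 0.19 for AgpL1 (SE 0.57, adjusted p = 0.993 in limma), with a 95% confidence interval from -1.10 to 1.47. The sign of this difference turned when AS17 pool 1 was left out, to -0.29, and when AS5 pool 2 was, to -0.16, and it was 0.13 without AS5 pool 3 and AS17 pool 1. AGP-S2 differed between the lines by -0.12 (SE 0.17, adjusted p = 0.965 in limma), with an interval from -0.50 to 0.27. Single arrays moved it: it was -0.31 without AS17 pool 1 (unadjusted p = 0.0445, adjusted p = 0.45 in limma) and -0.0015 without AS17 pool 3. Without AS5 pool 3 and AS17 pool 1 together it was -0.28. In this contrast 0% of all probe sets passed in limma, and 591 (5.89%) had an unadjusted p under 0.05. For members the count at an unadjusted p under 0.05 was 0.

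**Figure D2:**
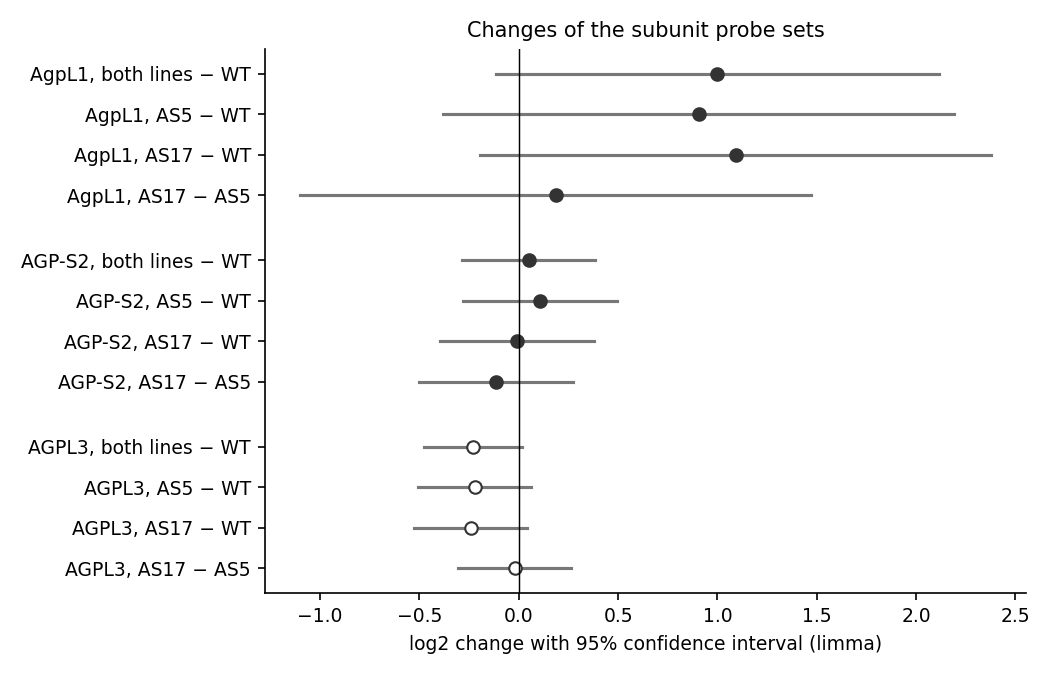
Log2 differences (horizontal axis) with 95% confidence intervals from limma for each probe set and contrast (vertical axis); open circles mark AGPL3, which was at background on 8 of 9 arrays. Every interval includes 0, and those of AgpL1 are the widest: for the mean of both lines from -0.12 to 2.11.

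Because an array-wide shift cancels within an array, the difference of AgpL1 minus AGP-S2 was taken on each one. It was -5.56, -3.92 and -4.93 in WT pools 1, 2 and 3, -4.27, -4.53 and -3.21 in AS5 pools 1, 2 and 3, and -3.13, -4.51 and -3.47 in AS17 pools 1, 2 and 3. The absolute size of these differences has no meaning across 2 probe sets, but its shift between groups does. Group means were -4.80 ± 0.82 in WT, -4.01 ± 0.70 in AS5 and -3.70 ± 0.72 in AS17 (SD, n = 3 each), a shift of 0.95 between the mean of the lines and WT. WT pool 2, at -3.92, overlapped the silenced pools. The shift was 0.61 without AS5 pool 3 and AS17 pool 1 and 0.57 without WT pool 1. It rose to 1.39 without WT pool 2 and to 1.15 without AS17 pool 2. The shift is described without a test.

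**Figure D3:**
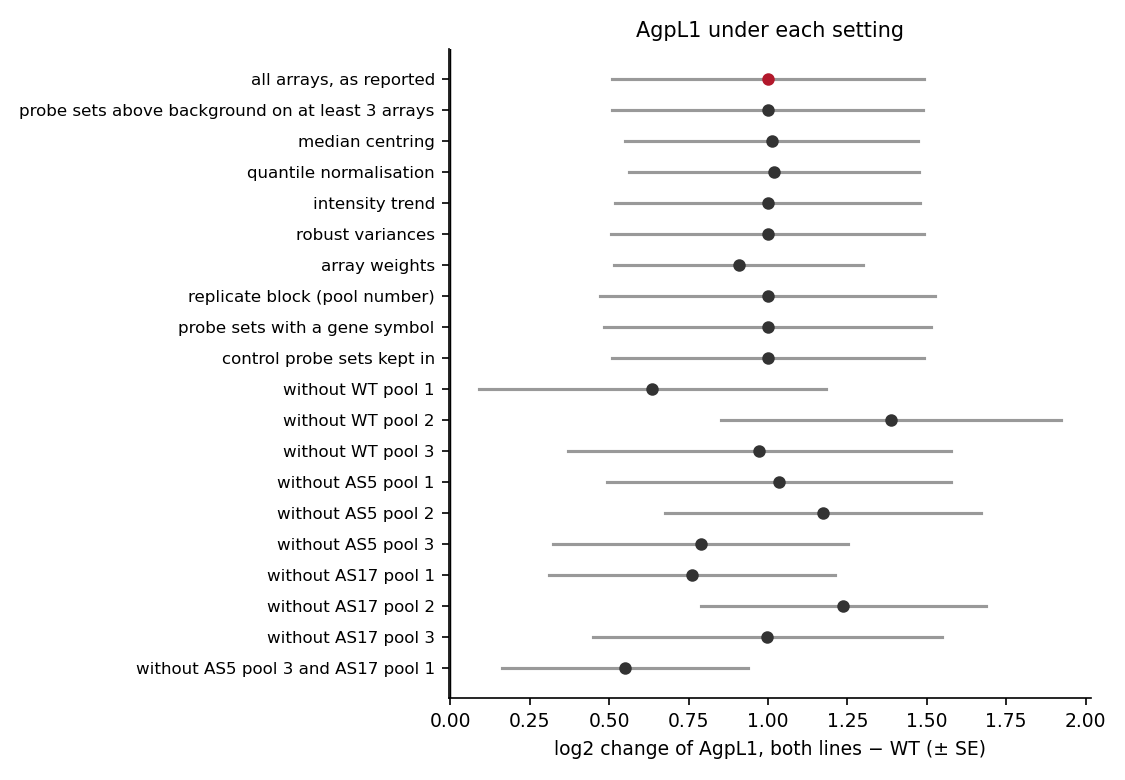
Log2 difference of AgpL1 between the mean of both lines and WT (horizontal axis, bars are ± SE) under the reported setting (red) and each alternative (vertical axis). The difference stays above 0 in all settings shown and is smallest, at 0.55, without AS5 pool 3 and AS17 pool 1, and largest, at 1.39, without WT pool 2.

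Genes around the enzyme were read from lists written with earlier results of these data known. The starch list of 32 further symbols matched only HT1, through its synonym STP1, and HT1 encodes a hexose transporter, so no other starch gene was measured under a listed name. The lists on sugar use, the SnRK1 kinase and abscisic acid held 30 genes in all, 22 of them above background on all arrays. A list for plastid redox proteins, which regulate the enzyme, matched 0 of 5 symbols.

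Sucrose cleavage and synthesis had 9 genes, and 0 passed for the mean of both lines in limma, with 3 at an unadjusted p under 0.05. Over all tested probe sets these shares were 1.28% and 15.5%, also for the lists that follow. The median difference was 0.03, beside 0.00 over all tested probe sets. The 3 were CIF1, an inhibitor of invertase that cleaves sucrose (0.33, SE 0.12, adjusted p = 0.22), SPS, for sucrose phosphate synthase (-0.28, SE 0.11, adjusted p = 0.275), and sus3, for a sucrose synthase (-0.38, SE 0.17, adjusted p = 0.322). Among the cell wall invertase genes, LIN7, LIN8 and Wiv-1 were at background on every array. Another, lin5, was above background in 0 WT pools, 1 AS5 pool and 2 AS17 pools. It differed by 0.76 for the mean of both lines (adjusted p = 0.337 in limma) and by 1.27 in AS17 (adjusted p = 0.153).

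Hexose phosphorylation feeds the hexose phosphates from which ADP-glucose is made. Of its 6 genes, 0 passed in limma, 1 had an unadjusted p under 0.05, and the median difference was 0.01. The hexokinase gene hxk1 stood at 4.74, 5.16 and 4.996 in WT pools 1, 2 and 3, at 5.57, 5.06 and 6.29 in AS5 pools 1, 2 and 3 and at 6.74, 5.54 and 6.13 in AS17 pools 1, 2 and 3. Of the silenced pools, 5 lay above every WT pool and AS5 pool 2 did not, and the difference of 0.92 (SE 0.31, adjusted p = 0.203 in limma) did not pass. The fructokinase genes FRK2 and FRK3 differed by 0.43 (adjusted p = 0.409) and -0.23 (adjusted p = 0.625). Sugar transport had 6 genes with 0 passing in limma, 0 at an unadjusted p under 0.05 and a median difference of 0.09. Its 3 smallest p belonged to HT2, a hexose transporter (0.49, adjusted p = 0.659), TMT (0.20, adjusted p = 0.745) and SUT4, a sucrose transporter (0.14, adjusted p = 0.784). HT2 was above background on 5 arrays only, and stood at 3.87 in AS5 pool 3 against 1.33 to 2.35 in the others.

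SnRK1 is a kinase that senses low sugar and is known to act on starch synthesis. Of its 4 genes 1 fell, the regulatory subunit gene SNF4 (adjusted p = 0.000552 in limma). SNF4 stood at 4.20, 3.76 and 3.87 in WT pools and between 1.47 and 2.32 in silenced pools. All AS17 pools and AS5 pool 1 were at background for it. Sip1, for another regulatory subunit, and SNF1, for the catalytic subunit, had differences of 0.40 (adjusted p = 0.578) and 0.24 (adjusted p = 0.678). The list's median difference was 0.03. Of 5 abscisic acid genes 1 fell, FLACCA, for the cofactor sulfurase of the last synthesis step (-0.83, SE 0.15, adjusted p = 0.0395 in limma). At an unadjusted p under 0.05 there were 4 of the 5, beside 15.5% of all tested probe sets, in a list written with earlier results known. They went both ways: FLACCA and ZEP (-0.24, adjusted p = 0.309) were lower, and NCED1 and TAS14 higher. FLACCA passed in AS17 (-1.29, adjusted p = 0.0153) and not in AS5 (-0.38, adjusted p = 0.578), and between the lines it differed by -0.91 (adjusted p = 0.585). NCED1, for the cleavage step before it, and the dehydrin gene TAS14 differed by 0.82 (adjusted p = 0.086) and 1.04 (adjusted p = 0.186). That list's median difference was -0.11, the value of AREB1, which is named for that reason. AREB1 differed by 0.29 in AS5 (adjusted p = 0.5285 in limma) and by -0.50 in AS17 (adjusted p = 0.0933). Between the lines it differed by -0.79 (adjusted p = 0.478). In AS17 minus WT, 5 of the 5 genes had an unadjusted p under 0.05, beside 17.3% of all tested probe sets. In AS5 minus WT 2 did, beside 9.24%.

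**Figure D4:**
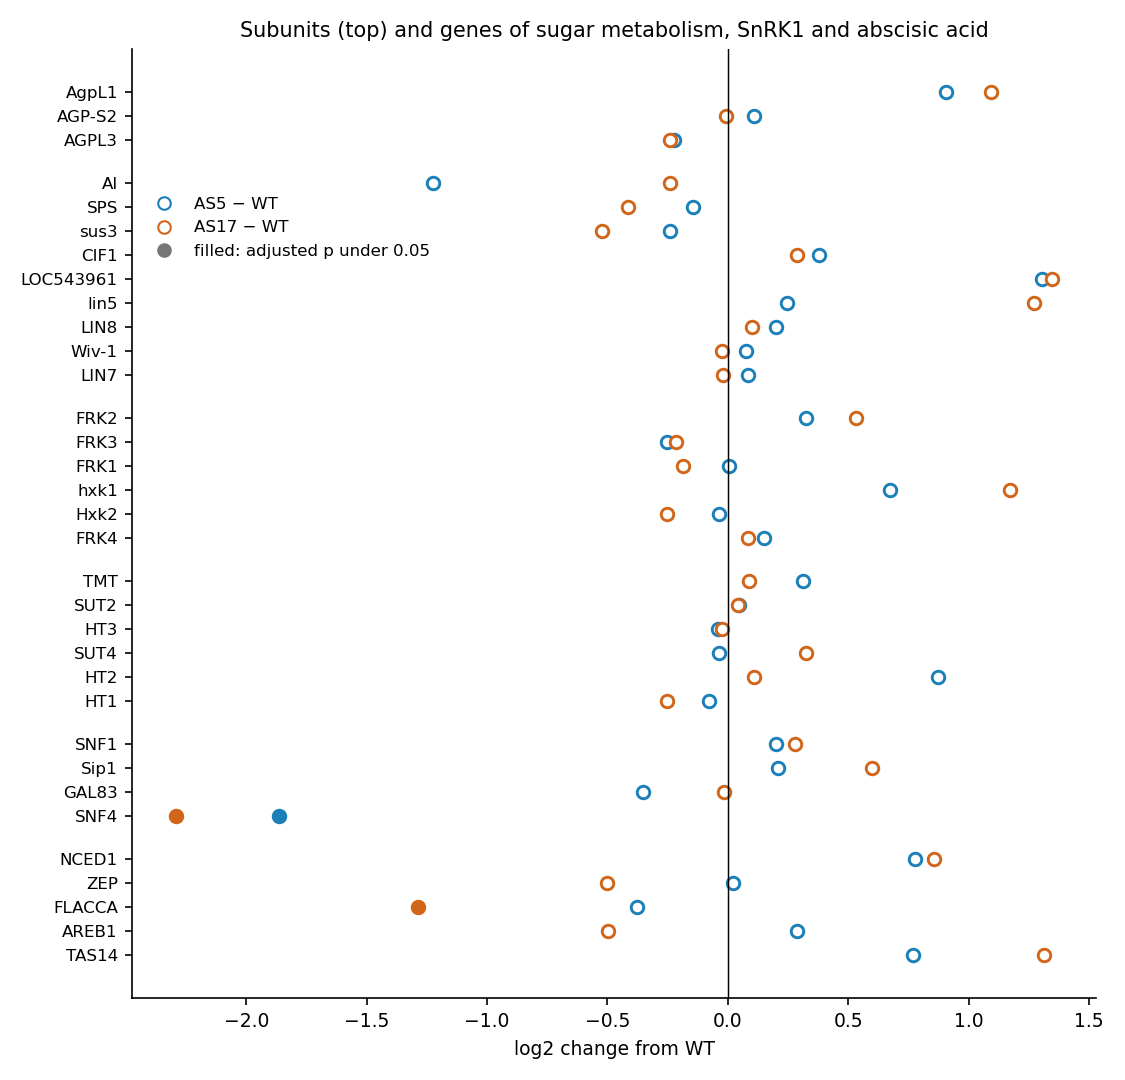
Log2 difference from WT (horizontal axis) in AS5 (blue) and AS17 (orange) for the 3 subunit probe sets, at the top, and the 30 genes of 5 lists (vertical axis), filled where the adjusted p was under 0.05. Only SNF4, in both lines, and FLACCA, in AS17, are filled. SNF4 was at background in all AS17 pools and in AS5 pool 1, so its points do not give the size of the difference.

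Over the 9 arrays, the 22 pathway genes above background everywhere followed AgpL1 to different degrees. Pearson's r ran from -0.87 to 0.93 with a median of 0.08. These are descriptions over arrays that were normalised together, and 2 of the arrays carry much of the range. The genes at both ends were singled out after their values were seen. At the upper end stood hxk1 (r = 0.93, Spearman's rho = 0.92), LOC543961, a sucrose synthase gene by its synonym sus2 (r = 0.87, rho = 0.80), and FRK2 (r = 0.86, rho = 0.75). Next came Sip1 (r = 0.83, rho = 0.67) and SNF1 (r = 0.82, rho = 0.78), both of the SnRK1 list. GAL83, named because it is the other SnRK1 gene above background on all arrays, had r = 0.37 (rho = 0.55). At the lower end stood FRK3 (r = -0.87, rho = -0.78) and FRK1 (r = -0.75, rho = -0.85), both for fructokinases.

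In the 7 arrays other than AS5 pool 3 and AS17 pool 1, r was 0.80 for hxk1, 0.60 for LOC543961, 0.59 for FRK2, -0.65 for FRK3 and -0.57 for FRK1. For Sip1 and SNF1 it was 0.60 and 0.57, and for GAL83 0.08. Without the 2 arrays farthest from AgpL1's median, WT pool 1 and AS17 pool 1, FRK1 was left with r = -0.26. Sip1 and SNF1 then had r = 0.85 and 0.87, and hxk1 had 0.84. LOC543961 stood at 8.05 in AS5 pool 3 and 8.09 in AS17 pool 1, against 4.91 to 6.58 in the other 7 arrays. FRK3 was lowest in the same 2 arrays, at 7.19 and 7.21, against 7.73 to 7.98. Of the 22 listed genes, hxk1 thus had the highest r with AgpL1 over the 9 arrays. Fructokinase genes stood at both ends, and the SnRK1 genes Sip1 and SNF1 near the upper one, but the SnRK1 gene GAL83 did not.

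**Figure D5:**
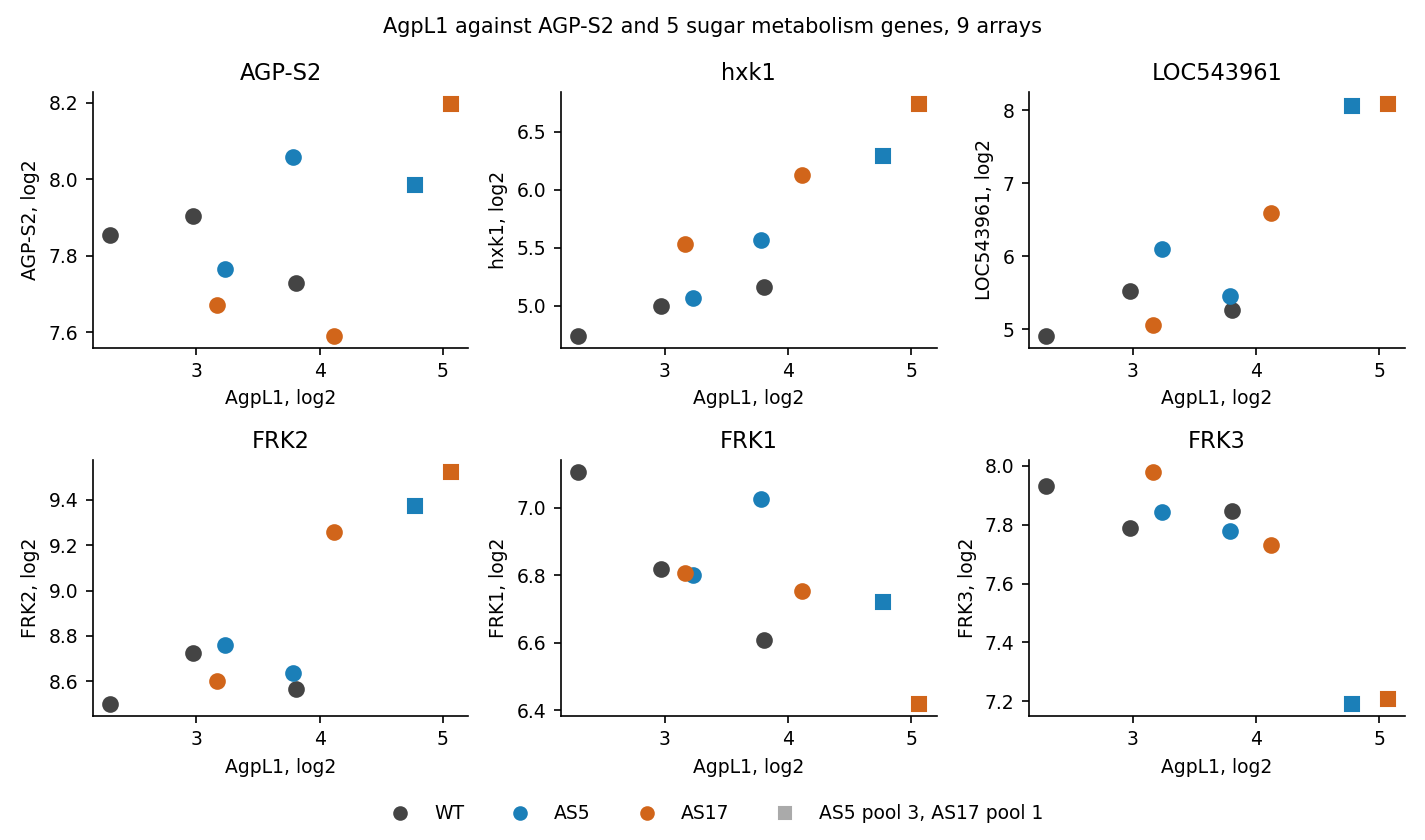
Log2 expression of AGP-S2, hxk1, LOC543961, FRK2, FRK1 and FRK3 (vertical axes) against that of AgpL1 (horizontal axes) in the 9 arrays, coloured by group, with squares for AS5 pool 3 and AS17 pool 1. The points of hxk1 are mostly higher where AgpL1 is higher (r = 0.93), those of FRK3 are low in the 2 squares only, and AGP-S2 shows no steady trend (r = 0.44).

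AgpL1 and AGP-S2 did not follow each other closely. Their r over the 9 arrays was 0.44 (rho = 0.27), and it was -0.26 in the 7 arrays without AS5 pool 3 and AS17 pool 1. Among 606 named genes above background on at least 5 arrays, AGP-S2 ranked 164 in likeness to AgpL1.

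The 5 named genes most like AgpL1 over the 9 arrays were LOC543718 (r = 0.95), CYCD3, for a D-type cyclin (0.95), TBG6, for a beta-galactosidase (0.94), PsbQ, for a photosystem II protein (0.94), and GABA-TP2 (0.94). In all 5, AS5 pool 3 and AS17 pool 1 were the 2 highest arrays, as they were in 15.5% of the 607 named genes above background on at least 5 arrays. In the other 7 arrays their r with AgpL1 lay between 0.85 and 0.92. Of the 5, PsbQ stood at 6.65 and 6.88 in the 2 arrays, against 3.56 to 6.42 in the others. The 5 most like AGP-S2 were GRAS6 (0.90), HSC80, for a heat shock protein of the Hsp90 family (0.88), DREB1 (0.85), NML1 (0.83) and LOC543654 (0.83). The lists depended on the measure. Over deviations from the group means, DDTFR10 (0.985), GABA-TP2 (0.97), LOC543968 (0.97), GMP (0.95) and LCY1 (0.95) were most like AgpL1, so only GABA-TP2 was in both. For AGP-S2 they were HSC80 (0.93), EIL3 (0.92), DREB1 (0.91), LOC606712 (0.90) and GRAS6 (0.90). These genes were the highest of 606 by r, so the size of r is given with no test.

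Markers of green tissue, where the enzyme also acts, matched 4 of 14 symbols. All 4 were above background on every array, and their mean per array ran from 6.67 to 7.39 in WT, 6.24 to 7.15 in AS5 and 6.52 to 7.01 in AS17. In AS5 pool 3 and AS17 pool 1 it was 7.15 and 6.84, within the range of the other 7 arrays, unlike the ripe-fruit mean. The 4 genes did not move together there. CAB4 stood at 6.22 and 6.56, against 4.96 to 6.31 in the other 7 arrays. LOC543978, matched as psaD, stood at 4.54 and 3.75, against 4.03 to 5.01. PSBR was highest in AS5 pool 3, at 10.53, and PSBO lay within the range of the others. Seed and epidermis markers matched 2 symbols each, and in each list 1 gene was at background on all arrays. Mean levels ran from 4.53 to 4.73 in WT, 4.52 to 4.66 in AS5 and 4.48 to 4.76 in AS17 for seed, and from 1.22 to 1.31, 1.49 to 1.60 and 1.36 to 1.49 for epidermis. The epidermis mean was thus higher in all silenced pools than in WT, but on every array it lay below that array's background level. The background level was itself higher in silenced-line arrays (1.57 to 1.98) than in WT (1.41 to 1.56), so this difference cannot be read as one of epidermis. The part of epidermis in the values of AgpL1 was not tested. The vascular list matched only TDR4, at 10.7 to 10.9, which is also a ripening-related gene of fruit.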

How the data were processed

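RNA of 9 mesocarp pools was hybridised to single-sample arrays, 3 each of WT, AS5 and AS17. The deposited values were log2 expression per probe set and array, made by the authors with RMA, per the submitters' processing notes. RMA is a method of background correction, normalisation between arrays and summary of probes, and no version or settings were stated in the labels. The values were used as deposited. Of 10209 probe sets, 171 controls were left out of the tests.

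The tests used lmFit and eBayes of limma 3.58.1 under R 4.3.3, with a mean for each group, all 9 arrays in the fit and Benjamini-Hochberg adjustment over 10038 probe sets within a contrast. All adjusted p-values are two-sided and come from this fit, except where arrays are said to be left out or another setting is named. The fit was first run on simulated data with independent noise and no arrays that stood apart. That run therefore does not show how the fit behaves with such arrays. Figures used matplotlib 3.10.9 in Python 3.11.15. Arrays have no read depth, so the number of pools limits precision, and p-values measure the spread between pools.

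Symbols came from the platform annotation, which is old. RefSeq (assembly SLM_r2.1) was used for symbols, synonyms and transcript numbers, and 885 of 909 named probe sets matched it. The brightest probe set stood for a gene. Genes were named if they passed in a contrast, had 1 of the 3 smallest p of a list, or were among the 5 most like a member, and others are marked where named. The members, lists and tests were chosen with earlier results of these data known. Alternatives covered filters, scaling, variance models, array weights, a pool block and leaving out arrays. Asr1 itself is not reported here. Pool numbers did not pair the arrays, as the closing section details.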

Additional observations from a re-analysis of the deposited data

How the results depend on the processing

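No subunit passed in any contrast under any of the 12 kinds of alternative run. Over all of them the adjusted p of the mean of both lines against WT ran from 0.208 to 0.796 for AgpL1, from 0.777 to 0.999 for AGP-S2 and from 0.123 to 0.70 for AGPL3. With 1 array left out, the AgpL1 difference for the mean of both lines ran from 0.64 to 1.39. Sign changes occurred in differences near 0, and the cause was not tested. AGP-S2 for the mean of both lines turned to -0.047 with array weights and to -0.057 without AS5 pool 3 and AS17 pool 1, and ran from -0.045 to 0.11 with 1 array left out. AGP-S2 in AS17 minus WT turned to 0.048 with median centring and 0.012 with quantile normalisation, and ran from -0.20 to 0.11 with 1 array left out. Between the lines, with 1 array left out, AgpL1 ran from -0.29 to 0.66, AGP-S2 from -0.31 to -0.0015 and AGPL3, at background, from -0.087 to 0.017. AGPL3 between the lines also turned to 0.070 with median centring, 0.012 with quantile normalisation, 0.062 with array weights and 0.051 without the 2 arrays. AGPL3 was not fitted with the filter on dim probe sets, which removed it. The 2-group fit is not defined for the mean of both lines, and the mean over a gene's probe sets equals its 1 probe set.

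With the pool number as a replicate block, AgpL1 differed by 1.00 (adjusted p = 0.44 in limma) and AGP-S2 by 0.05 (adjusted p = 0.915), with no call changed for a subunit. Of 9 same-numbered pairs, 2 deviated together with r over 0.1 (range -0.38 to 0.55), and 2 arrays correlated best with their own number, so the numbers do not pair the arrays.

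Over the whole table, the probe sets that passed numbered 128 for the mean of both lines, 38 for AS5 and 135 for AS17. The 3 counts were 556, 200 and 311 with array weights. The first and last became 78 and 74 with the block and 208 and 315 without AS5 pool 3 and AS17 pool 1, and AS17 became 47 in the 2-group fit. Among probe sets with a symbol only, 18, 3 and 17 passed. With 1 array left out, the 3 counts over the whole table ran from 27 to 110, from 18 to 38 and from 20 to 140.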
